A study of Mus musculus with 8 samples.

Results

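Pericentral liver sinusoidal endothelial cells (LSEC) line the liver capillaries next to the central vein. They were selected on raw unique molecular identifier (UMI) counts, and 437 of 3192 cells were members. A cell passed the LSEC gate with at least 1 UMI of 2 or more among Stab2, Clec4g, Oit3, Gpr182, Fcgr2b and Dnase1l3 and 0 UMIs of Vwf. Gated cells with a UMI of Esm1, Kcne3, Kcnj8 or Abcc9 were set aside, which took 228 of the 1261 gated cells and is called the Esm1 group here. The members were then chosen by 1 or more summed UMIs of Wnt2, Wnt9b, Kit and Rspo3. The remaining 596 gated cells had 0 UMIs of these 4 markers and are called other LSEC. The 15 genes of this rule are described below and were left out of every test.

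The cells came from livers of male C57BL/6 mice, per the labels, fed a chow control diet (4 mice) or a high fat, high cholesterol (HFHC) diet (4 mice) for 20 to 32 weeks. The mice are given as 6 to 8 weeks old, with no age at harvest, and no group carried a transgene or a drug treatment in the labels. Live non-parenchymal cells were sorted with antibodies to PDPN, CD146, CD31 and CD45, and the enriched stromal cells of each mouse gave 1 droplet library on the 10x Genomics platform. The titles call the diet high calorie where the series text says cholesterol, and the animal of HFHC 4 is numbered 14 in its title. The question the design poses is how the diet changes these cells.

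The liver lobule is zoned from the portal tract, where blood enters, to the central vein, where it leaves. Endothelial cells at the central end secrete the Wnt ligands Wnt2 and Wnt9b and the R-spondin Rspo3, which amplifies Wnt signalling, and nearby hepatocytes answer with pericentral genes such as those of drug metabolism. Kit, a receptor tyrosine kinase for stem cell factor, marks LSEC toward the same end, while Ltbp4, Msr1, Ntn4, Efnb1 and Efnb2 are used as markers of the portal end.

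The promoters of 3 of the markers are shown because Wnt2 and Kit placed most members in the class and Wnt9b very few. Each window runs from 250 bases before to 50 bases after the RefSeq start on GRCm38.p6, read 5′ to 3′ on the gene's strand. It lies at chr6:18030396-18030695 on the minus strand for Wnt2, at chr11:103749772-103750071 on the minus strand for Wnt9b and at chr5:75574737-75575036 on the plus strand for Kit. Capitals mark GATAA or its reverse complement TTATC, the core bound by GATA factors such as Gata4, which helps set LSEC identity.
Wnt2: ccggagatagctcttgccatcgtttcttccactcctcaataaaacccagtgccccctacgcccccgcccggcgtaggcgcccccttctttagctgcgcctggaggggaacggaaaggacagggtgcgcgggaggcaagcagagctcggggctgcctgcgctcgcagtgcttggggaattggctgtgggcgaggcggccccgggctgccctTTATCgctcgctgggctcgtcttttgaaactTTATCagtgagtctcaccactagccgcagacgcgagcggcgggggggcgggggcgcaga
Wnt9b: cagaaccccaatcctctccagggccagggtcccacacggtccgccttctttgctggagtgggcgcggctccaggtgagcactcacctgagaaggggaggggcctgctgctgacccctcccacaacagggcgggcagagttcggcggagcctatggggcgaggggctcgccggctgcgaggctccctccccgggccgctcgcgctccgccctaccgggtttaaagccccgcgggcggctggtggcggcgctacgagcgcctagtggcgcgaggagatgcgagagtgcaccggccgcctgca
Kit: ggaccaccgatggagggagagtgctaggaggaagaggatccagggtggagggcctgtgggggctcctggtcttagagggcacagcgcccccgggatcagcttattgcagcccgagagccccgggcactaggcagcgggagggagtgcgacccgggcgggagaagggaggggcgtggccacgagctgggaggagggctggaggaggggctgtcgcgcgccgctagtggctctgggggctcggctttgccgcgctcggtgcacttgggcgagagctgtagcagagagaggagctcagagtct
The Wnt2 window held 2 matches, both as TTATC, and the Wnt9b and Kit windows 0. Of 27025 RefSeq promoter windows of the same length, 25.8% held at least 1. Gata4 itself was measured in the members of every library used, at 71.2, 86.1, 140 and 242 CPM (a gene's UMIs divided by all UMIs summed over the cells, times 1000000) in control 1 to control 4 and 119 CPM in HFHC 4. The Wnt core TCAAAG, or its reverse complement CTTTGA, occurred in 0 of the 3 windows and in 16.2% of all promoters. These matches describe letters in the window only.

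Members were found almost wholly in 5 libraries. Control 1 to control 4 held 14, 36, 264 and 27 members, and HFHC 1 to HFHC 4 held 1, 0, 0 and 95. The diet is therefore represented by 1 library, HFHC 4, wherever members are compared. The members' summed UMIs were 56181, 104559, 434428 and 57919 in the controls and 160051 in HFHC 4, with medians per cell of 2867, 1967.5, 1608, 1933 and 1594. With 3 UMIs as the limit that a count of 0 allows, a gene at 0 could still lie at up to 53.4, 28.7, 6.91 and 51.8 CPM in the members of control 1 to control 4.

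Some of these libraries stood apart. Control 1, control 2 and HFHC 1 to HFHC 3 shared 33 to 65 cell barcodes in each pair, other pairs at most 4, and each barcode was kept only where it had most UMIs. At least 2 different marker genes of another cell class (3 for hepatocytes) occurred in all 14 members of control 1 and in 27 of 36 for control 2. They occurred in 8 of 264 members for control 3, 10 of 27 for control 4 and 4 of 95 for HFHC 4. A single cell gave 23.9% of the members' UMIs in control 2 and 22.3% in control 1, and both held such markers. Control 4 carried Xist in 21 of 27 members and Y-linked transcripts in 0, although its label says male. In every other library Xist was found in 0 cells. In HFHC 1 such markers occurred in its 1 member, a Scrublet doublet, and in all 13 other LSEC. The large samples of members with few transcripts of other cells were thus control 3 and HFHC 4.

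Endothelial identity was checked on genes outside the rule. Kdr, the main VEGF receptor, had a UMI in 86.4% of members of control 3 and 80% of HFHC 4, and Cdh5, the endothelial cadherin, in 61.4% and 64.2%. Pecam1 had one in 45.1% and 49.5%, and Lyve1 in 39.0% and 17.9%. In control 1 Cdh5 was found in 35.7% of members. The leukocyte gene Ptprc was seen in 0 members of control 3, control 4 and HFHC 4, but in 3 of 14 in control 1 and 2 of 36 in control 2. Mast cells also carry Kit. Of 10 mast cell and basophil genes 3 were detected in the members of control 2, where 1 of 36 members held at least 2 of them. In control 1, control 3, control 4 and HFHC 4, 1 was detected in the members of each.

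Over all gated LSEC, the share of pericentral members was lower in HFHC 4 than in each control library. Members made up 36.8% of 38 gated cells in control 1 (Wilson 95% interval 23.4 to 52.7), 53.7% of 67 in control 2 (41.9 to 65.1), 48.2% of 548 in control 3 (44.0 to 52.4) and 62.8% of 43 in control 4 (47.9 to 75.6). They made up 95 of 536 in HFHC 4 (17.7%, 14.7 to 21.2) and 1 of 23 in HFHC 1 (4.35%, 0.772 to 21.0). HFHC 2 and HFHC 3 held 0 members among 3 gated cells each and do not enter the test. The controls averaged 50.4% ± 10.9 (SD, n = 4), the 2 HFHC libraries lay -39.35 points from them, and the groups did not overlap. The two-sided exact permutation test gave p = 0.133, the smallest value that 4 against 2 libraries allow. Without HFHC 1 the difference was -32.7 points and the exact permutation p = 0.4, again the smallest possible. The intervals cover counting error only.

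**Figure D1:**
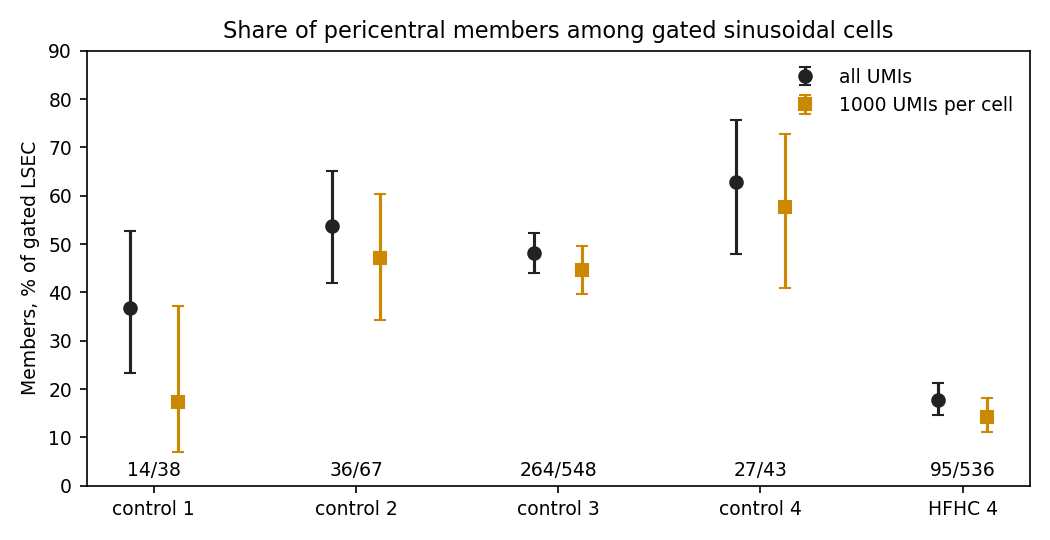
Members as a percentage of gated LSEC in the 5 libraries with at least 10 members, with all UMIs (circles) and after each cell was thinned to 1000 UMIs (squares); bars are Wilson 95% intervals and the numbers at the bottom are members over gated cells. HFHC 4 lies at 17.7% and the controls lie between 36.8% and 62.8%.

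Without cells holding markers of other cells, control 1 had 0 members among 5 gated cells (Wilson upper bound 43.4%), below HFHC 4 at 17.3% (14.3 to 20.8). Control 2 to control 4 were then at 64.3%, 48.2% and 77.3%, and HFHC 1 had 0 gated cells left. In HFHC 4 the Esm1 group, which the rule sets aside, held 192 of the 536 gated cells, against 16 of 548 in control 3. Of these 192 cells, 45 carried a UMI of the 4 markers. Without the Esm1 group in the denominator, members were 27.6% of HFHC 4 (23.2 to 32.6) and 49.6% of control 3 (45.4 to 53.9). At 1000 UMIs per cell, with shallower cells left out, members were 14.2% of 387 gated cells in HFHC 4 (11.1 to 18.0). They were 17.4% of 23 in control 1 (6.98 to 37.1), 47.2% of 53 in control 2 (34.4 to 60.3), 44.5% of 384 in control 3 (39.6 to 49.5) and 57.6% of 33 in control 4 (40.8 to 72.8). At equal depth HFHC 4 thus lay below control 2 to control 4, and its interval overlapped that of control 1. HFHC 1 then had 2 members among 4 gated cells (50%), so the diets overlapped at this depth.

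Wnt2 and Kit defined most members. Wnt2 was found in 292 of 437 (66.8%), Kit in 229 (52.4%), Rspo3 in 60 (13.7%) and Wnt9b in 14 (3.20%). A single marker was present in 306 members, 2 markers in 107, 3 in 21 and all 4 in 3. Wnt2 and Kit occurred together in 99 members, 118 had Kit alone and 173 had Wnt2 alone. At the threshold of the rule, 225 members had exactly 1 marker UMI, and the most in a cell was 22. The non-gated cells of control 2, of which 800 of 808 held markers of another cell class, give a background for such counts in that library. Wnt2 was seen in 1.24% of the 808, Kit in 0.990% and Rspo3 in 1.98%, at a median of 1284.5 UMIs. In the 67 gated cells of control 2 the shares were 34.3%, 34.3% and 25.4%, at 2191 UMIs. In the libraries that hold most members the non-gated cells, which include Vwf-positive ones, carried the markers more often. Wnt2 was seen there in 26.9% of 26 cells of control 3 and 18.8% of 80 cells of HFHC 4. Among cells with under 2 gate genes, 17.6% carried a marker in control 3, 16.3% in control 4 and 15.6% in HFHC 4, at medians of 410, 2636 and 791 UMIs. Whether a member with a single marker UMI carries it from free RNA was not tested.

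Levels of the markers differed among libraries more than between the diets. In members, Wnt2 stood at 142, 402, 693 and 932 CPM in control 1 to control 4 and at 525 CPM in HFHC 4. Kit stood at 178, 402, 389 and 846 CPM against 312 CPM. Rspo3 stood at 17.8, 622, 94.4 and 449 CPM against 125 CPM. In all 3 cases HFHC 4 lay within the control range, and since the rule requires a marker UMI these levels carry no test. Wnt9b had 0, 4, 8 and 1 UMIs in the members of the controls and 2 in HFHC 4, too few to rank the libraries. Over all gated cells, which the markers did not select, Wnt2 was at 55.5, 223, 384 and 514 CPM in the controls and 114 CPM in HFHC 4, between control 1 and the other controls. Wnt2 lies at chr6:17988940-18030585, Kit at chr5:75574916-75656722, Rspo3 at chr10:29452416-29535867 and Wnt9b at chr11:103727364-103749821 (mm10).

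Summed over genes that the rule did not use, the pericentral end stood higher in cells with more marker UMIs, and the portal end stood lower. These are levels with no test. In control 3 the summed level of 17 other pericentral genes was 5274 CPM (exact 95% binomial interval 5032 to 5524) in cells with 0 marker UMIs. It was 6586 CPM (6244 to 6941) with 1 and 8622 CPM (8244 to 9013) with 2 or more. In HFHC 4 the same steps were 6303 CPM (6041 to 6573), 7948 CPM (7421 to 8503) and 9042 CPM (8266 to 9870). The 12 periportal genes went from 2138 CPM (1985 to 2300) over 1351 CPM (1198 to 1517) to 912 CPM (791 to 1045) in control 3, and from 2639 CPM (2470 to 2816) over 1719 CPM (1478 to 1988) to 1096 CPM (836 to 1411) in HFHC 4. In both libraries the 3 periportal steps have intervals that do not overlap, and cells with a single marker UMI lie between the other groups. In control 2 the pericentral sum was 2665 CPM with 0 and 7251 CPM with 2 or more marker UMIs, and in control 4 it was 2967 and 8956 CPM. Without cells holding markers of other cells these steps were smaller, at 4153 and 7623 CPM in control 2 and at 6506 (4817 to 8593) and 9546 CPM (8441 to 10753) in control 4, where the intervals overlap. The periportal sum of control 4 was 911 and 784 CPM, with intervals that overlap. The cells were deeper where they held more markers in control 3, with medians of 1196.5, 1445 and 1811 UMIs. In HFHC 4 the medians were 1242, 1600.5 and 1469. The sums are scaled to depth, and the intervals cover counting error only. Abundant genes weigh most in the sums. In members of HFHC 4, Fabp4 gave 684 UMIs in cells without Rspo3 and 178 in cells with it, of 1332 UMIs in the pericentral list. In members of control 3 it gave 566 and 173 of 3319. By gene, 8 of 13 pericentral genes with at least 10 UMIs were higher in members of HFHC 4 and 11 of 13 in control 3.

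**Figure D2:**
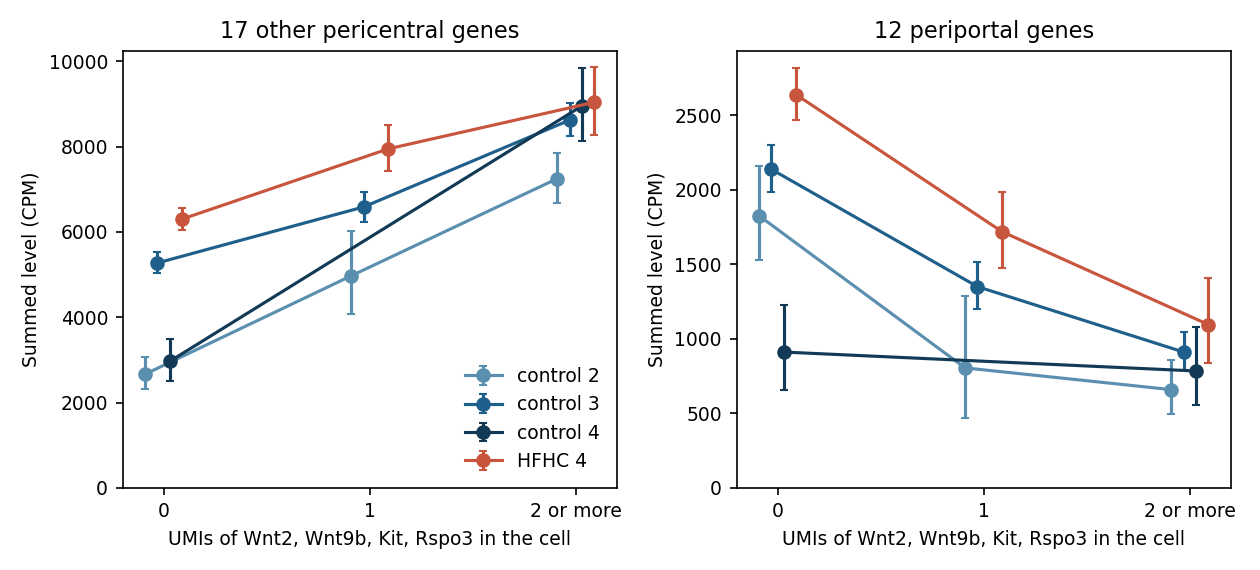
Summed level in CPM of 17 other pericentral genes (left) and 12 periportal genes (right) in LSEC with 0, 1 and 2 or more UMIs of Wnt2, Wnt9b, Kit and Rspo3, by library, with exact binomial 95% intervals. Classes under 5 cells are not drawn, and control 1 is left out. The pericentral sum climbs to 8622 CPM in control 3 and 9042 CPM in HFHC 4, and the periportal sum drops to 912 and 1096 CPM.

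Pericentral LSEC were then tested against other LSEC of the same mice with edgeR, over 5 libraries with the library as a block. No gene passed as higher (0% of 2203 tested) and 5 passed as lower (0.227%), while 163 genes had an unadjusted p under 0.05 and DESeq2 called 1. The 5 genes were Ccl21a, Lcn2, Tppp3, Col1a1 and Cd52, which are known from lymphatic vessels, neutrophils, fibroblasts and leukocytes rather than from LSEC. Ccl21a, the lymphatic chemokine, was at 587 CPM in members and 22848 CPM in other LSEC of control 4, with 0 UMIs in both classes elsewhere. Lcn2, a neutrophil granule protein, was at 9.56 against 1394 CPM in control 2 and 0 against 742 CPM in control 4. In control 4, 10 neutrophil and monocyte genes summed to 34.5 CPM in members and 42.4 CPM in other LSEC. There 10 cholangiocyte genes summed to 155 and 657 CPM. Col1a1, a fibrillar collagen, was at 267 against 2006 CPM in control 1. The other LSEC of control 4 also held 26621 CPM of 7 lymphatic genes against 725 CPM in members, and those of control 2 held 43376 CPM of 10 neutrophil and monocyte genes against 2171 CPM. Tppp3, a tubulin-binding protein, was at 17.8, 38.3, 0, 121 and 0 CPM in members against 91.9, 122, 5.94, 3582 and 5.82 CPM in other LSEC, lower in each library and mostly through control 4. The part of transcripts of other cells in these calls was not tested.

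In the same fit all 12 tested pericentral genes were higher in members, with a median log2 fold change of 0.67, and all 6 tested periportal genes were lower, with a median of -1.20. None of these passed the edgeR threshold. Of all 2203 genes 45.8% were higher, with a median of -0.03. Immediate early and heat shock genes, which respond to cell handling, were lower in members in 15 of 16 cases (median -0.36) and hepatocyte genes in 9 of 10 (median -0.46), with 0 passing. The part of handling in the zonal values was not tested. By library, among genes with at least 10 UMIs, 12 of 12 pericentral genes were higher in control 2, 11 of 13 in control 3, 10 of 10 in control 4, 8 of 13 in HFHC 4 and 3 of 7 in control 1. Periportal genes were higher in 0 of 6, 1 of 9, 0 of 2, 0 of 12 and 3 of 6. Of all genes with at least 10 UMIs, 60.7%, 49.5%, 54.0%, 47.6% and 48.2% were higher in members of these libraries, in the same order. Control 1 departed from the zonal order in both lists, and in HFHC 4 5 of 13 pericentral genes were lower in members. In control 1, 14 stellate cell and fibroblast genes summed to 6070 CPM in members and 8838 CPM in other LSEC.

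Without cells that held markers of other cells, an alternative chosen after seeing the data, control 3 and HFHC 4 remained as the libraries with at least 10 cells in each class. There 13 genes rose (0.27% of 4814 tested) and 14 fell (0.291%) in pericentral LSEC, and 328 had an unadjusted p under 0.05. Among 13 tested pericentral genes 3 rose and 11 were higher, with a median of 0.53. Among 11 tested periportal genes 5 fell and 11 were lower, with a median of -1.16, against 2408 of all 4814 genes higher and a median of 0.00. This fit leaves 1 residual degree of freedom per gene, and the spread is shared across genes. The same 2 libraries without that filter gave 13 higher and 13 lower. The levels below are those of all members and other LSEC.

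The 3 pericentral genes that rose were Fabp4, Plpp1 and Cdh13. Fabp4, a fatty acid carrier at chr3:10204088-10208576, was at 214, 2381, 1701 and 2106 CPM in the members of control 1 to control 4 and 5386 CPM in HFHC 4, against 153, 1055, 823, 1208 and 4254 CPM in other LSEC. It was higher in members of all 5 libraries. Without cells holding other markers its log2 fold change was 0.61 (SE 0.09, edgeR adjusted p = 2.1e-08), and over all 5 libraries it was 0.69 (SE 0.15, edgeR adjusted p = 0.0792). Plpp1, a membrane lipid phosphatase at chr13:112800792-112867894, was at 516, 1329, 1952, 2244 and 731 CPM in members against 705, 392, 1318, 318 and 425 CPM, so it was higher in all but control 1. Its change was 0.63 (SE 0.11, edgeR adjusted p = 1.5e-05) in the 2 libraries. Cdh13, a cadherin without a transmembrane domain at chr8:118283733-119324921, was at 0, 201, 101, 155 and 112 CPM against 0, 67.7, 32.7, 106 and 37.8 CPM. Its change was 1.57 (SE 0.37, edgeR adjusted p = 0.00674). It was about as enriched in both large libraries, at a ratio of 3.10 (exact 95% interval 1.58 to 6.66) in control 3 and 2.97 (1.38 to 6.60) in HFHC 4.

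The other pericentral genes did not pass. Cyp26b1, which breaks down retinoic acid, was higher in members of all 5 libraries, at 320, 373, 792, 224 and 200 CPM against 15.3, 176, 609, 84.8 and 72.8 CPM. Thbd, the thrombomodulin gene, differed between the large libraries in direction, with 80.6 against 20.8 CPM in control 3 and 56.2 against 96.0 CPM in HFHC 4. Its interaction between class and diet did not pass (log2 difference -2.05, SE 1.00, edgeR adjusted p = 1). Hpgd, which degrades prostaglandins, was lower in members in both, with 375 against 440 CPM and 119 against 189 CPM. Gatm, an enzyme of creatine synthesis, stood at 1351 against 1099 CPM in control 3 and 887 against 626 CPM in HFHC 4.

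The periportal genes that fell were Ltbp4, Msr1, Ntn4, Efnb1 and Ly6c1. Ltbp4, which binds latent TGF-beta, was at 1050, 306, 396, 173 and 400 CPM in members of control 1 to control 4 and HFHC 4, against 613, 392, 763, 382 and 695 CPM in other LSEC. Only control 1 had the higher level in members, and the change in the 2 filtered libraries was -0.88 (SE 0.14, edgeR adjusted p = 7.9e-07). Msr1, a scavenger receptor, was at 196, 9.56, 89.8, 17.3 and 87.5 CPM against 30.6, 244, 249, 42.4 and 236 CPM, again lower in all but control 1, with a change of -1.47 (SE 0.26, edgeR adjusted p = 7.7e-06). Ntn4, a netrin, was at 46.0 against 187 CPM in control 3 and 194 against 329 CPM in HFHC 4. Its change was -1.31 (SE 0.25, edgeR adjusted p = 7.3e-05), and control 4 went the other way with 121 against 0 CPM. Efnb1, an ephrin ligand, was at 96.7 against 172 CPM and 81.2 against 201 CPM in the 2 libraries. Ly6c1, a surface antigen of capillary cells, had 0 UMIs in members of control 3, which allows up to 6.91 CPM, against 29.7 CPM in other LSEC.

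**Figure D3:**
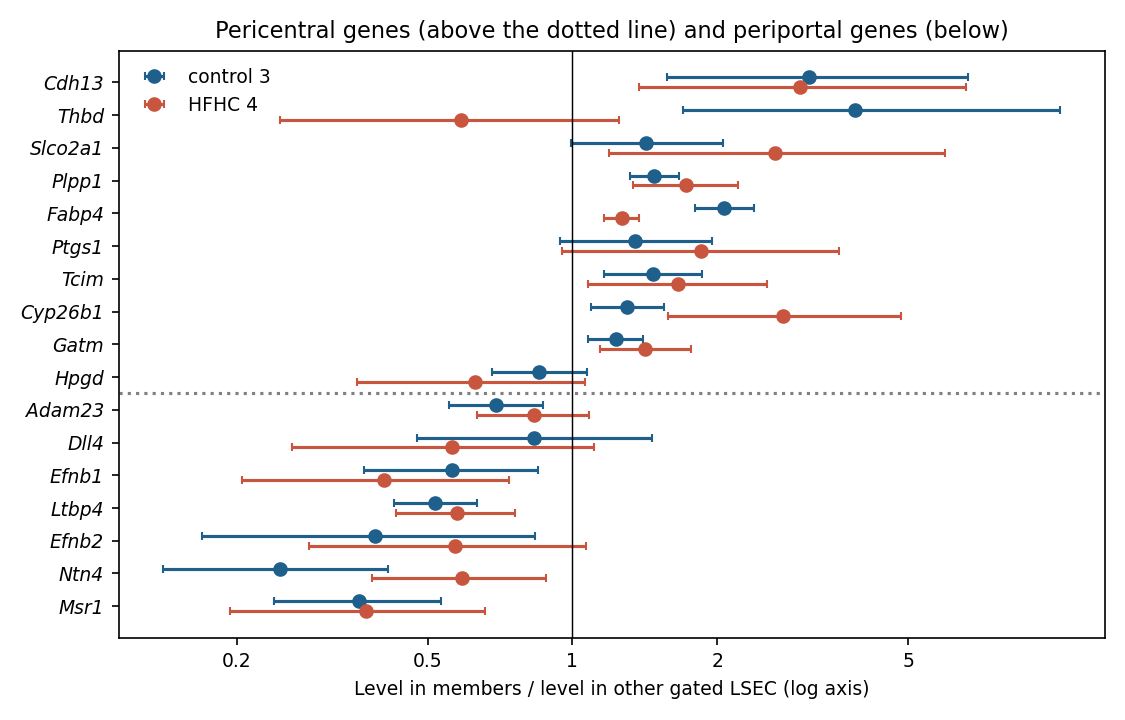
Ratio of the level in members to that in other LSEC on a log axis for 10 pericentral genes (above the dotted line) and 7 periportal genes (below), in control 3 (blue) and HFHC 4 (red), with exact 95% intervals for counting error. Among the genes drawn, Thbd of HFHC 4 and both Hpgd ratios lie below 1 and the other pericentral ratios above it. All 14 periportal ratios lie below 1. Of the listed genes not drawn, Meis1 was higher in members of control 3 and Pcdh17, Rab3b and Ada were lower in members of HFHC 4. Among pericentral genes with at least 10 UMIs, 2 of 13 were lower in members of control 3, of which only Hpgd is drawn, and 5 of 13 in HFHC 4.

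Outside the zonal lists, Lgals1 had the smallest p. Lgals1 encodes galectin-1, a secreted lectin that binds glycans on leukocytes and matrix (chr15:78926725-78930465). It was at 659, 1358, 1215, 846 and 1568 CPM in members against 1348, 744, 564, 360 and 570 CPM in other LSEC, higher in every library but control 1. Its change in the 2 filtered libraries was 1.28 (SE 0.12, edgeR adjusted p = 1.8e-23). Over all 5 libraries it was 0.67 (SE 0.34, edgeR adjusted p = 0.77), and without control 1 it was 1.09 and passed. Ly6a, the Sca-1 antigen, went the other way at 916 against 1785 CPM in control 3 and 1106 against 2110 CPM in HFHC 4, a change of -0.98 (SE 0.10, edgeR adjusted p = 2.0e-17). In control 2 it was at 450 against 2516 CPM, and in control 1 and control 4 members had the higher level. The scavenger receptor Cd36 fell by 0.47 on the log2 scale.

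Among the other genes that rose in the 2 filtered libraries were Ndufa8, a subunit of respiratory complex I (0.86), Ltc4s, which makes leukotriene C4 (0.94), Jup, the junction protein plakoglobin (1.68), and Ifitm10 (2.96). Jpt1 (0.83), Slc9a9 (1.29), Parp1 (1.64) and Lman1 (1.02) rose too. Falls besides those above included Mecom, an endothelial transcription factor (-2.03), Ackr1, a chemokine scavenger (-1.17), Plac8 (-2.07) and Mup20 (-1.61). Mup20 is a hepatocyte gene, at 43.7 against 122 CPM in control 3, and 18 hepatocyte genes summed to 207 CPM in members and 442 CPM in other LSEC there. In HFHC 4 these sums were 194 and 195 CPM. The part of hepatocyte transcripts in the fall was not tested.

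Of the other Wnt pathway genes, 3 of 17 genes for Wnt secretion and receptors had enough counts in the 5 libraries, with 2 higher, and 0 passed in either direction. Without cells holding other markers 4 of 7 were higher and 0 passed. Wls, which carries Wnt ligands to the surface, was at 107, 86.1, 120, 86.3 and 62.5 CPM in members against 352, 67.7, 92.1, 42.4 and 146 CPM. Neither class was higher throughout. Fzd4, a Wnt and norrin receptor, was at 89.0, 144, 82.9, 276 and 87.5 CPM against 45.9, 40.6, 89.1, 0 and 58.2 CPM. Among 20 Wnt targets and inhibitors 3 were tested, and 6 without cells holding other markers, and 0 passed in both fits, and of 20 other Wnt and R-spondin ligands 3 were detected in members at all. The members held 490 UMIs of Wnt2, 154 of Rspo3 and 15 of Wnt9b.

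Angiocrine ligands, signals that endothelial cells give to other cells, showed no call either. In the 5 libraries 5 of 6 tested genes were higher, and 5 of 10 without cells holding other markers (median -0.01), with 0 passing in both fits. Bmp2, which controls hepatocyte hepcidin, was at 356, 823, 1121, 1278 and 843 CPM in members against 306, 338, 1069, 276 and 716 CPM in other LSEC. It was higher in members of all 5 libraries, by a small margin in control 3 and HFHC 4, and its edgeR adjusted p was 0.603. A list of 18 genes held VEGF and angiopoietin receptors and other endothelial surface genes such as Pecam1 and Cdh5. Of these 17 were tested with 11 higher (median 0.19). The direction turned without cells holding other markers, with 7 of 18 higher (median -0.06). Of 28 endothelial transcription factors 4 of 12 tested were higher, and 6 of 21 without those cells. Of 17 KIT signalling genes 1 could be tested, and 10 without those cells, with 4 higher. None of these lists had a call in either fit.

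Members with and without Rspo3 were set side by side. In the 5 libraries 59 members had an Rspo3 UMI and 377 did not, with pooled medians of 1738 and 1672 UMIs. Within libraries the depth differed. The medians were 2412 against 1920 UMIs in control 2 and 1710.5 against 1599 in control 3. They were 1388.5 against 2107 in control 4 and 1152 against 1634 in HFHC 4. Control 1 had 1 member with Rspo3, at 12548 UMIs, against a median of 2806. Fabp4 was at 4949 CPM with Rspo3 and 2013 CPM without, a ratio of 2.46 (exact 95% interval 2.23 to 2.71). The ratio was above 1 in control 2 (6.64, 4.85 to 9.25), control 3 (3.67, 3.08 to 4.36), control 4 (2.07, 1.35 to 3.09) and HFHC 4 (7524 against 5015 CPM, interval of the ratio 1.27 to 1.77). In control 1 the cell with Rspo3 had 0 Fabp4 UMIs, against 275 CPM in members without it. In control 2 the members without Rspo3, with 65390 UMIs in all, include 1 cell of 24948 UMIs that held markers of other cells. The part of that cell in the ratio of control 2 was not tested. These are descriptions with no test, since Rspo3 is part of the rule and members without it must carry another marker.

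A few genes were found mostly in the members with Rspo3. Edn1, the vasoconstrictor endothelin-1, had 26 UMIs in 7 members with Rspo3 and 4 UMIs in 4 of the 377 without, and 18 of the 26 came from 2 cells of control 2. Selp, the adhesion molecule P-selectin, had 14 UMIs in 6 cells against 4 in 4, with 7 of the 14 from 1 cell of control 4, and Lhx6, a transcription factor, 15 UMIs in 12 cells against 7 in 7. Thbd was at 237 against 73.4 CPM (ratio 3.23, 1.96 to 5.22), although control 4 had the reverse with 106 against 268 CPM and the interval of HFHC 4 spanned 1 (0.466 to 13.5). Cdh13 was at 254 against 89.2 CPM (2.84, 1.78 to 4.47), with intervals that spanned 1 in control 3, control 4 and HFHC 4. Wnt9b had 8 UMIs in 7 cells with Rspo3 and 7 UMIs in 7 cells without. Other genes went the other way. Gatm was at 567 against 1158 CPM (0.489, 0.376 to 0.628), and the hyaluronan receptor Lyve1 at 161 against 318 CPM (0.505, 0.299 to 0.808), although control 2 had the reverse for Lyve1 with 332 against 61.2 CPM. The gate genes Stab2 (0.627, 0.492 to 0.790) and Clec4g (0.647, 0.579 to 0.722) were lower with Rspo3, as was Maf (0.616). In control 2 Stab2 and Clec4g had ratios of 1.15 and 1.03, and in control 4 Clec4g had 1.05. Edn1, Selp, Clu, Cd9 (1.51, 1.20 to 1.88) and Ltbp4 (0.906, 0.647 to 1.24) are on the list of large vessel endothelial genes. Whether members with Rspo3 include vein cells was not tested.

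**Figure D4:**
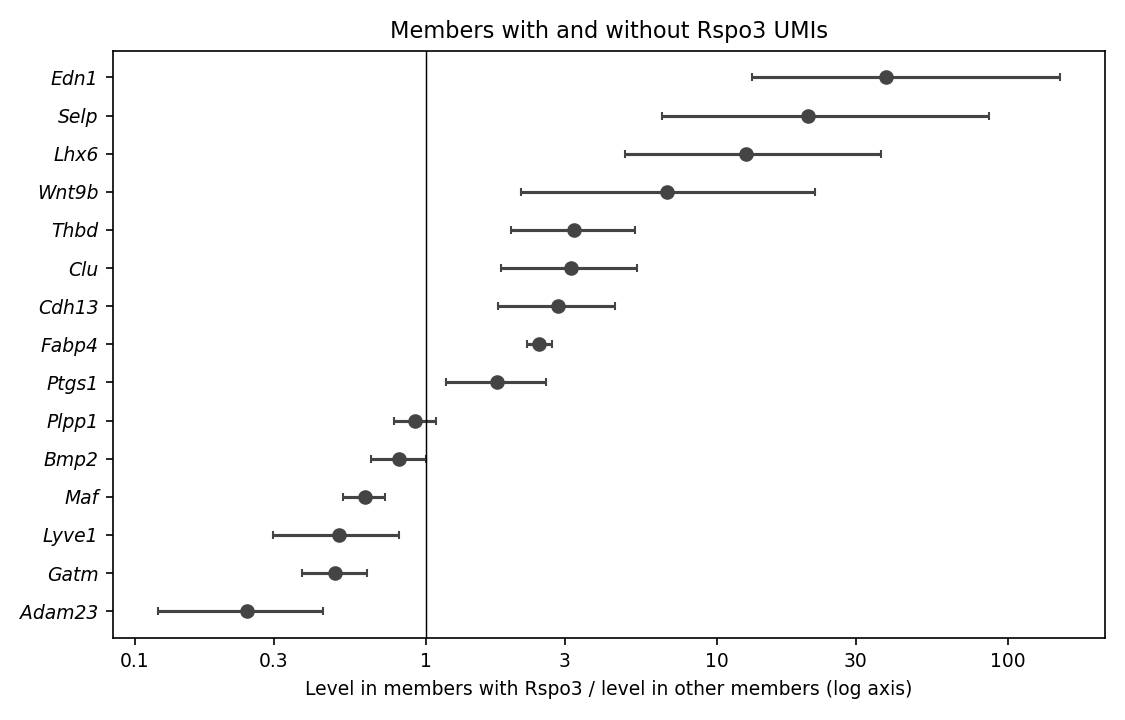
Ratio of the level in 59 members with Rspo3 UMIs to that in 377 members without, on a log axis, over 5 libraries with exact 95% intervals for counting error. Edn1, Selp, Lhx6 and Wnt9b lie farthest above 1 and rest on few UMIs, Fabp4 lies at 2.46, and Gatm and Lyve1 lie below 1. Clu lies at 3.14, with 20 of its 23 UMIs in members with Rspo3 from 1 cell of control 1.

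The gate left out part of the cells that carry these ligands. In HFHC 4 the 80 non-gated cells held 190 Rspo3 UMIs (1272 CPM) against 20 in the 95 members, and 10 Wnt9b UMIs against 2. In control 4 the 51 non-gated cells held 48 Rspo3 UMIs against 26 in members. Of 35 Vwf-positive cells in HFHC 4, 15 carried a marker UMI, as did 5 of 9 in control 3. Vwf, the von Willebrand factor gene, marks vein endothelium and bars a cell from the gate. In control 3 most UMIs of Rspo3 and Wnt2 lay in members, with 41 of Rspo3 against 15 in non-gated cells and 301 of Wnt2 against 13.

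No gene passed between HFHC 4 and the 4 controls within pericentral members (0% of 3002 tested with edgeR, 31 at an unadjusted p under 0.05). DESeq2 also called 0, with 41 under that p. HFHC 4 lay above all 4 controls for 13.4% of genes and below all 4 for 14.5%. With control 3 and control 4 as the only controls, 1 gene passed (8430408G22Rik, at 2.30 and 0 CPM against 231 CPM, named after its values were seen), and control 3 against HFHC 4 alone allows no test. The comparison has 1 HFHC library, which is assumed to vary like the controls, and it describes that library. The 5 genes with the smallest p were Cd36, Slc9a3r1, Srsf7, Bc1 and Fabp5, each with an edgeR adjusted p = 0.998.

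All 7 tested genes of lipid uptake and efflux were higher in HFHC 4, with a median log2 fold change of 1.05 and 0 passing, against 44.3% of all genes higher and a median of -0.09. Cd36, the fatty acid translocase (chr5:17781690-17888801), was at 196, 95.6, 407 and 449 CPM in the controls and 1106 CPM in HFHC 4, a change of 2.01 (SE 0.57). Fabp5, a fatty acid carrier (chr3:10012548-10016607), was at 338, 182, 562 and 449 CPM against 1100 CPM, a change of 1.56 (SE 0.53). Fabp4 was at 214 to 2381 CPM in the controls against 5386 CPM. HFHC 4 stood above every control in these 3 genes. Members of HFHC 4 over those of control 3 alone had ratios of 2.71 (exact 95% interval 2.19 to 3.36) for Cd36, 1.96 (1.60 to 2.39) for Fabp5 and 3.17 (2.87 to 3.50) for Fabp4, covering counting error only. Gpihbp1, which anchors lipoprotein lipase, was at 1210, 1559, 3384 and 3608 CPM against 4317 CPM.

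High levels of the lipid genes were not particular to the members of HFHC 4. In its other LSEC Cd36 was at 1257 CPM and Fabp5 at 1525 CPM, above the members, and Fabp4 was at 4254 CPM, below them. The list of 20 lipid genes summed to 12840 CPM in members and 12096 CPM in other LSEC of HFHC 4, against 2617 to 7286 CPM and 2604 to 6895 CPM in the controls. The interaction of diet and class had 0 calls among 3151 genes (0%, 27 at an unadjusted p under 0.05, and 0 calls with 3 such genes in DESeq2), and its median over 7 lipid genes was -0.03. Its 5 smallest p belonged to Plac8, Wfdc21, Bc1, Hpcal1 and Srsf7, each with an edgeR adjusted p = 1.

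Pericentral genes outside the rule tended to be lower in HFHC 4 members, with 4 of 14 higher and a median of -0.86, and 0 passed. Plpp1 was at 516, 1329, 1952 and 2244 CPM in the controls and 731 CPM in HFHC 4, above control 1 and below the others. Cyp26b1 was at 320, 373, 792 and 224 CPM against 200 CPM. Hpgd was at 178, 469, 375 and 656 CPM against 119 CPM, below every control. Fabp4 went the opposite way, with a log2 fold change of 1.82 (SE 0.96), and Gatm, at 249, 660, 1351 and 1036 CPM against 887 CPM, stayed within the control range. Of 6 tested periportal genes 4 were higher, with a median of 0.19.

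**Figure D5:**
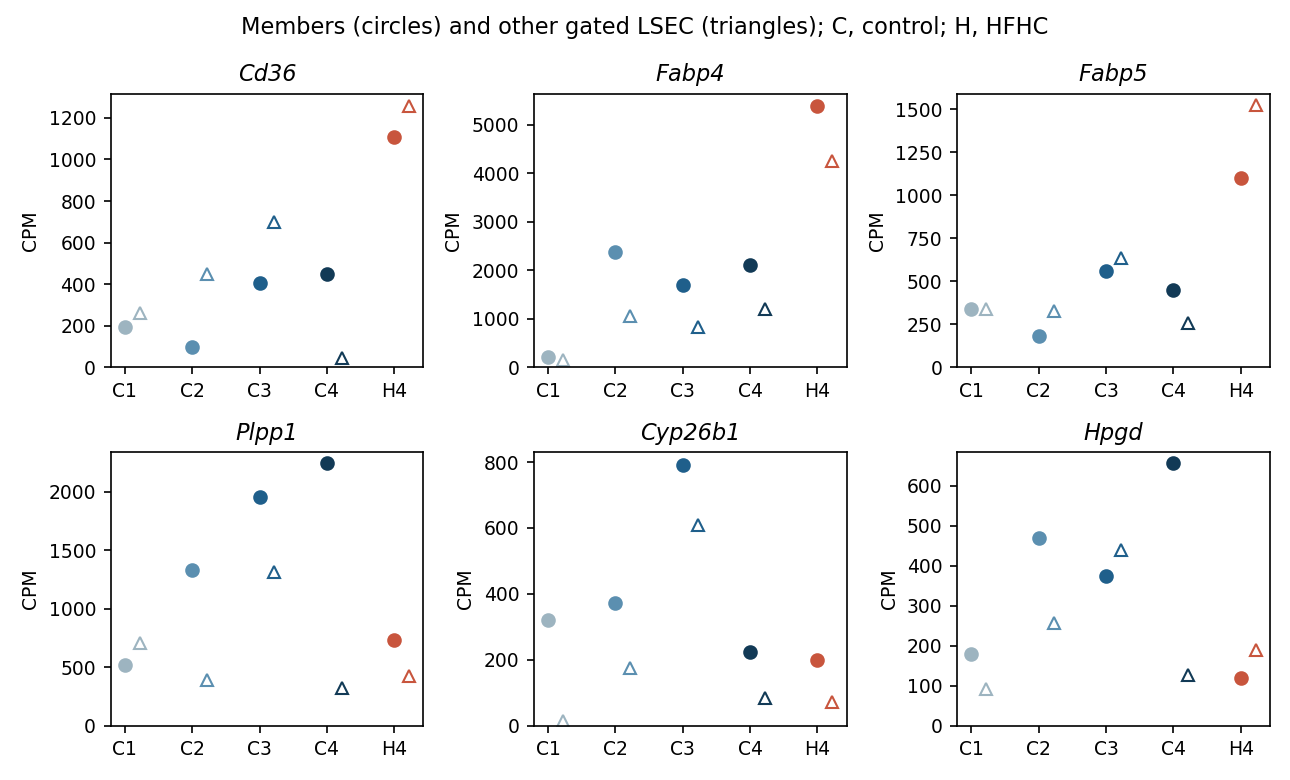
Level in CPM of 3 lipid genes (Cd36, Fabp4, Fabp5) and 3 pericentral genes (Plpp1, Cyp26b1, Hpgd) in members (circles) and other LSEC (triangles) of control 1 to control 4 (C1 to C4) and HFHC 4 (H4); each point is 1 library. Members of HFHC 4 reach 1106 CPM of Cd36 and 5386 CPM of Fabp4, above every control, and 119 CPM of Hpgd, below every control.

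Transcripts of other cells moved with this comparison. All 10 tested hepatocyte genes were lower in HFHC 4, with a median of -3.55 and 0 passing, and 18 hepatocyte genes summed to 1228, 3529, 207 and 742 CPM in members of the controls against 194 CPM. All 17 tested immediate early and heat shock genes were lower, with a median of -1.34. Their sum over 20 genes was 9363, 4189, 1487 and 2089 CPM in the controls and 1881 CPM in HFHC 4, so control 3 lay below HFHC 4. The part of cell handling and of other cells in the diet values was not tested.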

How the data were processed

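Liver stromal cells of 8 mice, 1 library each per the labels, were analysed from the deposited table of raw UMI counts (31053 genes). Per the submitters' processing notes the authors used Cell Ranger 3.0.1 and Seurat on mm10. Each barcode stayed in its deepest library, which left 3192 of 3416 cells. The members and gene lists were chosen with earlier results of these data known.

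Sums over the cells of a class in a library (10 cells or more) went into edgeR 4.0.16 under R 4.3.3: TMM scaling, filterByExpr, a robust quasi-likelihood fit and Benjamini-Hochberg adjusted p with a threshold of 0.05. DESeq2 1.42.0 was an alternative. Members and other LSEC of a library come from the same animal, so the library was a block. SE is the change over the root of F. Scrublet doublets (scanpy 1.11.5) were kept, and removed in an alternative. Scripts were tested on simulated data. Named genes had the 10 largest changes per direction past the threshold, at 20 CPM or more and alike in every library, or else the 5 smallest p. Listed genes could be named besides. Promoters came from RefSeq and positions from GENCODE.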

Additional observations from a re-analysis of the deposited data

Results flagged for a closer look

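In 25 sets of 4 control values that were screened, 1 had a sample far from the rest, and chance alone gives about 1 in 20. The transcript 8430408G22Rik was at 38.3 CPM (4 UMIs) in members of control 2 and at 0, 2.30 and 0 CPM in those of control 1, control 3 and control 4. In HFHC 4 it was at 231 CPM in members and 218 CPM in other LSEC. It was named after its values were seen. Its log2 fold change between HFHC 4 and the controls was 4.45 (SE 1.20, edgeR adjusted p = 0.998), and it passed in 7 of 18 alternatives, with edgeR adjusted p from 2.4e-06 to 1.00 over all of them. Without control 1 the change was 4.46, and without control 2 it was 6.66. The alternative with at least 20 cells drops only control 1 here, so it is the same fit as without control 1 and not a further one.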

How the results depend on the processing

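Members against other LSEC gave 5 calls as reported. The count was 1 with DESeq2, 55 without a filter on low counts, 36 with at least 20 cells, 3 without Scrublet doublets, 19 with 2 or more marker UMIs, 27 without cells holding markers of other cells, 12 when these were also thinned, and 26 in control 3 and HFHC 4 alone. It ran from 4 to 17 when a library was left out, and was highest without control 1. Without the library block (no pairing of the classes within a mouse) it was 0. Fabp4 and Lgals1 were higher in members in all 21 alternatives and passed in 10 each, and Ltbp4, Msr1 and Ntn4 were lower in every alternative that tested them. Ccl21a reversed to 0.52 without cells holding other markers at a 5-cell minimum, and the cause was not tested.

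Filters on cells with markers of other cells and fits on chosen libraries were added after seeing the data. For the diet comparison, at least 20 cells is the same fit as without control 1. A 5-cell minimum alone is the same fit as the one reported. The diet count of 0 became 1 without the low-count filter, 2 with at least 20 cells, 1 without cells holding other markers, 1 with these and a 5-cell minimum, and 1 in control 3, control 4 and HFHC 4 alone. Leaving out a control gave 0 to 2 calls: 8430408G22Rik and Alb without control 1, 8430408G22Rik without control 2, and Alb and Trf without control 3. The interaction gave 1 call with at least 20 cells (Plac8) and 0 to 1 when a control was left out (Crip1 without control 1). The lipid median stayed between 0.72 and 1.22 in 18 alternatives and the pericentral median between -1.32 and -0.74. The periportal median for the diet ran from -0.10 to 0.91 when a control was left out, and turned to -0.01 without control 2 and -0.10 without control 4; the cause was not tested. No paired analysis of the diets was possible because the control and HFHC libraries come from different mice and the labels name no pairs. HFHC 4 could not be left out of the diet tests, and without cells holding other markers the interaction had too few libraries at the 10-cell minimum.

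Thinning gave a share of 17.4% in control 1 and 14.2% in HFHC 4. With 2 or more marker UMIs the shares were 10.5%, 38.8%, 22.4% and 6.53% in control 1 to control 3 and HFHC 4. With 500 genes per cell control 3 was at 54.4%, and without cells holding other markers control 4 was at 77.3% and control 1 at 0 of 5 cells. At 56181 to 434428 UMIs per library of members, most Wnt pathway genes were below the filter and differences in them were not detectable.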
